A study of Mus musculus with 4 samples.

Results

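Basophils and their progenitors were followed in mouse bone marrow through 8 genes of the 18695 counted: the basophil proteases Prss34 and Mcpt8, the granule protease Cpa3, the IgE receptor subunits Fcer1a and Ms4a2, the transcriptional regulators Gata2 and Lmo4, and the eosinophil granule gene Prg2. The genes were taken by name, with earlier results of these data known. Cells in which Mcpt8 and Prss34 together made up at least 0.5% of the unique molecular identifiers (UMIs, 1 per captured mRNA molecule) were gated as basophils, which gave 195 of 8969 cells. Because Mcpt8 and Prss34 drew the gate, their contrast between gated and ungated cells was fixed by that choice, while the other 6 genes did not enter it.

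The single-cell RNA-seq libraries came from bone marrow of Mx1-Cre Tet2 fl/fl mice (Tet2 KO) and of Tet2 fl/fl littermates without Cre (WT), 8 to 12 weeks old, all of which had received pI:pC. The methods name male and female mice for the study as a whole and do not give the sex of each mouse. Mx1-Cre is driven by an interferon-inducible promoter and recombines outside blood cells too. Each genotype gave 1 library of sorted granulocyte-monocyte progenitors (GMP: Lin-, cKit+, Sca1-, CD34+, CD16/32+) and 1 library of lineage-negative cells mixed with CD11b+ myeloid cells (Lin-/CD11b+). The cell table gives 1 mouse per genotype, so a ratio between sorts was taken within 1 mouse, and genotype, mouse and preparation cannot be told apart. With 1 library per genotype and sort there is no replicate check and no test. Levels are UMIs per 1000000 (CPM) of the summed cells, and intervals, at 95%, are of counting error alone: exact Poisson for CPM, exact binomial for shares of cells, and exact conditional binomial for ratios.

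Basophils are rare granulocytes that carry IgE on the high-affinity receptor FceRI and release histamine, proteases and cytokines such as IL-4. They arise in bone marrow from granulocyte-monocyte progenitors through basophil and basophil-mast cell progenitors. GATA2 is required for basophil and mast cell formation and, like GATA1, binds DNA at the core GATA sequence. Mast cells share Cpa3 and FceRI with basophils, and eosinophils, which also depend on GATA factors, store the major basic protein that Prg2 encodes.

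The stretches of 150 bases before the annotated start of 6 of the genes are printed to show where the sequence that GATA factors read lies in them. The letters were taken from RefSeq (GRCm38.p6), in which 7 of the 8 genes had an entry. Prg2 had none, and Lmo4, with several annotated starts, is not shown. Gata2 had 2 entries, and only the stretch of the first listed is shown. Prss34 lies at chr17:25298394-25300165 on the plus strand, and its stretch is chr17:25298244-25298393. Mcpt8 lies at chr14:56082166-56085273 on the minus strand, and its stretch, chr14:56085274-56085423, was moved 76 bases upstream to keep transcribed sequence out. Cpa3 lies at chr3:20215620-20242181 on the minus strand with its stretch at chr3:20242182-20242331, and Fcer1a at chr1:173221284-173227214 on the minus strand with its stretch at chr1:173227230-173227379. Ms4a2 lies at chr19:11615523-11623719 on the minus strand with its stretch at chr19:11623720-11623869. Gata2 lies at chr6:88193891-88207032 on the plus strand with its stretch at chr6:88193741-88193890. Lmo4 lies at chr3:144188530-144205220 on the minus strand and Prg2 at chr2:84980461-84983632 on the plus strand, and all 8 are protein-coding genes. Each line reads 5′ to 3′ on the strand of the gene, and capitals mark a match, on either strand, to AGATAA, to its form that ends in G (AGATAG), or to the pair that starts with T instead (TGATAA and, likewise, TGATAG).
Prss34: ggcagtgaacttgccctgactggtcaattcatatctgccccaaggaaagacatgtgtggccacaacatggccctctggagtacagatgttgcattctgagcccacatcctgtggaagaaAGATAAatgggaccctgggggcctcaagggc
Mcpt8: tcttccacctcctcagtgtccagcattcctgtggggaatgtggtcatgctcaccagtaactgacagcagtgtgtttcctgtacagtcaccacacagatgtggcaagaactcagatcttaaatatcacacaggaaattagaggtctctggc
Cpa3: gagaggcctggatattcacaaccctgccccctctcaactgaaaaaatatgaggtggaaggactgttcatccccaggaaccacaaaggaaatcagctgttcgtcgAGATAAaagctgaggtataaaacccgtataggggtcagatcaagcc
Fcer1a: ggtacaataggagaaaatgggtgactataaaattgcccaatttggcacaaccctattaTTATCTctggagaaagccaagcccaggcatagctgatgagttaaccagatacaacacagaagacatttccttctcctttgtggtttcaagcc
Ms4a2: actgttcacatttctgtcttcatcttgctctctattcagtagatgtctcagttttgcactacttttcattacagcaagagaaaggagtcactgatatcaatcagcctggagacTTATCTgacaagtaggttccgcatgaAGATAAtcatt
Gata2: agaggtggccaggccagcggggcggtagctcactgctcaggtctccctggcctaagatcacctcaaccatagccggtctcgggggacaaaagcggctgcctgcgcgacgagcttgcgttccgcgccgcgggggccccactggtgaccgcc
Prss34, Cpa3 and Fcer1a each held 1 match and Ms4a2 held 2, so 4 of the 6 stretches had at least 1. Of 32851 RefSeq promoter stretches of the same length, 16.0% held at least 1 match and 2.54% held 2 or more. A match describes the letters only, and no match in the Mcpt8 and Gata2 stretches says only that these letters are not in these windows.

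The libraries held 1258 cells (WT GMP), 2719 (Tet2 KO GMP), 1924 (WT Lin-/CD11b+) and 3068 (Tet2 KO Lin-/CD11b+), with 22681380 to 42561110 UMIs each and at least 5003 per cell. The study's sample sheet gives the cell numbers of the Tet2 KO GMP and WT Lin-/CD11b+ libraries the other way round. The deposited assignment was used, under which a lymphoid-like cluster led by immunoglobulin genes (cluster 11) had 0 cells in each GMP library and 158 and 168 cells in the Lin-/CD11b+ libraries. Tet2, the targeted gene, stood at 13.02 CPM (11.6 to 14.6) in WT GMP, 17.0 (15.8 to 18.3) in Tet2 KO GMP, 13.4 (11.9 to 15.0) in WT Lin-/CD11b+ and 20.7 (19.2 to 22.2) in Tet2 KO Lin-/CD11b+. Counts of 3′ tags do not read a deletion elsewhere in the gene, so these values check nothing about the genotype labels. There were 37 cell barcodes found in more than 1 library, on 74 cells of which 2 were gated.

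The gate took 42 of 1258 WT GMP cells, or 3.34% (2.42 to 4.49). It took 51 Tet2 KO GMP cells (1.88%, 1.40 to 2.46), 42 WT Lin-/CD11b+ cells (2.18%, 1.58 to 2.94) and 60 Tet2 KO Lin-/CD11b+ cells (1.96%, 1.496 to 2.51). The highest share was that of WT GMP, and the intervals of all 4 libraries overlapped. The sorts fix which cells could enter each library, so the shares describe the libraries and not the marrow. Just outside the limit the highest cell of each library had 0.467 to 0.497% of UMIs from the gate genes, and just inside the lowest had 0.515 to 0.619%. Between 0.25 and 0.5% lay 14, 23, 10 and 12 cells, in the library order given above. The gated cells of the 2 sorts differed in how far past the limit they lay: their median was 1.97 and 1.54% in WT and Tet2 KO GMP, and 4.25 and 4.36% in WT and Tet2 KO Lin-/CD11b+. They also held fewer UMIs per cell in the Lin-/CD11b+ sort, with medians of 7683 and 8037, than in the GMP sort, with 10631.5 and 11402.

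When all cells were clustered, 184 of the 195 gated cells fell in cluster 10, which met the rule for a basophil-like name with 7 of 7 markers. The other 11 lay in 7 other clusters, 4 of them from WT GMP, 2 from Tet2 KO GMP and 5 from Tet2 KO Lin-/CD11b+, and 2 of the last were in the neutrophil-like cluster 12. Those from the GMP libraries, and those in cluster 3 from Tet2 KO Lin-/CD11b+, passed the gate through Mcpt8 only. They held no UMI of Prss34, Cpa3, Fcer1a, Ms4a2 or Gata2, and they stay in the gated values below. In WT GMP, Gata2 was at 252 CPM with these cells and at 308 in gated cells of cluster 10. Ms4a2 was at 569 and 695. Markers of other cells were also counted in the gate. The 10 megakaryocyte and erythroid markers summed to 141, 177, 172 and 183 CPM inside against 20.2 to 66.2 outside. Of these, Itga2b alone was at 84.8 to 144 CPM inside. The stem and progenitor, monocyte, dendritic cell and lymphoid lists were not higher inside in all 4 libraries. The 4 mast cell genes counted summed to 2104, 1951, 2834 and 2683 CPM inside against 47.0 to 116 outside, and nearly all of that was Cpa3. Of the other 3, Gzmb was at 0 in every library, Cma1 was at 0 in 3 libraries and at 5.29 CPM in WT Lin-/CD11b+, and Kit was at 12.1 to 31.9 CPM. The 9 eosinophil genes summed to 24.2, 16.6, 108 and 19.5 CPM inside against 63.8 to 128 outside. Among them Epx reached at most 2.65 CPM inside, Ccr3 1.77 and Prg3 13.2, while Siglecf read higher inside than outside in all 4 libraries, at 5.32 to 15.9 against 2.60 to 5.63. The Siglecf values inside rest on few counts, and the 5.32 CPM of Tet2 KO Lin-/CD11b+ is 3 UMIs. Il5ra was at 0, a count of 0 allowing 4.96 to 7.94 CPM with the 3 UMIs taken as its limit. The 9 markers of neutro-biased GMP, made up mostly of the granule genes Mpo, Ctsg, Elane, Prtn3 and Ms4a3, summed to 12196, 12365, 6935 and 11088 CPM inside. This was below the 23423, 24649 and 9882 CPM outside in the first 3 libraries and above the 8060 CPM outside in Tet2 KO Lin-/CD11b+. The 9 neutrophil markers summed to 252, 89.4 and 381 CPM in the first 3 libraries and to 15168 in Tet2 KO Lin-/CD11b+, where 3974 of the 4067 S100a8 UMIs came from the 2 gated cells in cluster 12. Igkc, an immunoglobulin light chain gene, was at 27986 CPM in WT Lin-/CD11b+, with 98.5% of it in 3 cells. Doublets were not removed from the counts. Leaving out the 11 cells outside cluster 10 removes none of the Igkc cells of WT Lin-/CD11b+, so the part of those cells, and of granule gene RNA, in the values below was not tested.

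Outside the gate definition, 5 of 6 genes stood far higher in basophils than in the pool of all ungated cells in every library, and Prg2 did not. With 10 CPM added to both levels, 5 of these 6 genes were at least 2-fold higher inside the gate in all 4 libraries. Of 10559 genes tested, 0.985% were. None of the 6 was 2-fold lower in all 4, where 0.54% were. The median log2 ratio over the 4 libraries was 4.31 for the 6 genes and -0.081 for all genes. The genes were chosen with earlier results of these data known, and they are among the leading genes of cluster 10. The count and the median therefore describe the choice, and nothing is read from them. For Mcpt8 and Prss34 the contrast was set by the gate. The ungated cells are of unlike kinds, and for those 5 genes the ungated cells of cluster 10 lay nearer to the gated cells. Lmo4 there was at 1047, 806, 1434 and 685 CPM, in the library order given above, against 751, 839, 968 and 677 inside. Gata2 there was at 213, 146, 212 and 154 CPM, against 252, 146, 328 and 252 inside. Over the libraries pooled, Cpa3, Fcer1a and Ms4a2 were lower there, at 1110, 592 and 352 CPM against 2330, 1683 and 520 inside.

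Among the proteases, Prss34, a serine protease of basophil granules (mast cell protease 11), stood at 11079 CPM in gated WT GMP cells, 7168 in Tet2 KO GMP, 24581 in WT Lin-/CD11b+ and 20757 in Tet2 KO Lin-/CD11b+. Both Lin-/CD11b+ libraries lay above both GMP libraries, and of the gene's UMIs 91.4 to 97.3% were inside the gate. Mcpt8, the basophil-specific serine protease mast cell protease 8, stood at 13183, 11459, 22260 and 27514 CPM in the same order, again with no overlap between sorts. It left more of its UMIs outside, so that 74.2 to 93.5% were inside the gate and 32.2 to 65.6 CPM remained in other cells. Cpa3, carboxypeptidase A3, which basophils share with mast cells, stood at 2092 CPM in WT GMP, 1925 in Tet2 KO GMP, 2813 in WT Lin-/CD11b+ and 2651 in Tet2 KO Lin-/CD11b+. Outside the gate it was at 82.3, 66.0, 25.2 and 32.5 CPM. The ratio was therefore 25.4-fold (23.5 to 27.4) and 29.2-fold (27.2 to 31.3) in the GMP libraries but 112-fold (101 to 124) and 81.5-fold (75.4 to 88.2) in the Lin-/CD11b+ libraries, most of which came from the lower level outside.

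Of the IgE receptor genes, Fcer1a, the ligand-binding alpha chain, stood at 1710 CPM in gated WT GMP cells, 1264 in Tet2 KO GMP, 2453 in WT Lin-/CD11b+ and 1593 in Tet2 KO Lin-/CD11b+. WT lay above Tet2 KO in each sort, and the 2 sorts overlapped. Against 7.02 to 33.2 CPM outside, this was 51.5-fold (46.6 to 56.9) in WT GMP, 114-fold in Tet2 KO GMP, 266-fold in WT Lin-/CD11b+ and 227-fold in Tet2 KO Lin-/CD11b+. Ms4a2, the signal-amplifying beta chain, moved within a narrower range, at 569, 467, 566 and 502 CPM in the same order. It was at 18.8, 9.01, 3.95 and 3.497 CPM outside, 30.2-fold (25.9 to 35.2) lower than inside in WT GMP and 143-fold lower in Tet2 KO Lin-/CD11b+ (115 to 179). Both genes outside the gate were highest in WT GMP.

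Gata2, the regulator at the head of the basophil and mast cell branch, was at 252 CPM (210 to 301) in gated WT GMP cells, 146 (117 to 179) in Tet2 KO GMP, 328 (273 to 391) in WT Lin-/CD11b+ and 252 (212 to 297) in Tet2 KO Lin-/CD11b+. The lowest library was Tet2 KO GMP, whose interval overlapped none of the others. Outside the gate Gata2 was at 13.9, 6.48, 6.82 and 8.01 CPM, which made it 18.2-fold (14.7 to 22.4), 22.5-fold (17.5 to 28.7), 48.1-fold (37.7 to 61.4) and 31.4-fold (25.5 to 38.6) higher inside. Although the gate held 2.17% of cells, it held 24.4 to 44.9% of Gata2 UMIs. Lmo4, an adaptor of transcription factor complexes that is expressed in many cell types, was at 751 CPM inside in WT GMP, 839 in Tet2 KO GMP, 968 in WT Lin-/CD11b+ and 677 in Tet2 KO Lin-/CD11b+. It was at 71.3 to 93.6 CPM outside, so its ratio was the smallest of the 7 genes in every library, from 7.23-fold (6.49 to 8.05) to 11.8-fold (10.7 to 12.9). Between 10.9 and 15.6% of Lmo4 UMIs were inside the gate.

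Prg2 parted from the other members. Inside the gate there were 6, 1, 29 and 2 UMIs (12.1, 1.66, 76.7 and 3.54 CPM), held by 1, 1, 3 and 1 cells, whereas outside the level was 71.1, 48.4, 44.3 and 97.2 CPM. It was lower inside in 3 libraries and 1.73-fold (1.16 to 2.51) higher in WT Lin-/CD11b+, where 20 of the 29 UMIs came from 1 cell. Of all 7900 Prg2 UMIs, 0.481% were in gated cells.

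**Figure D1:**
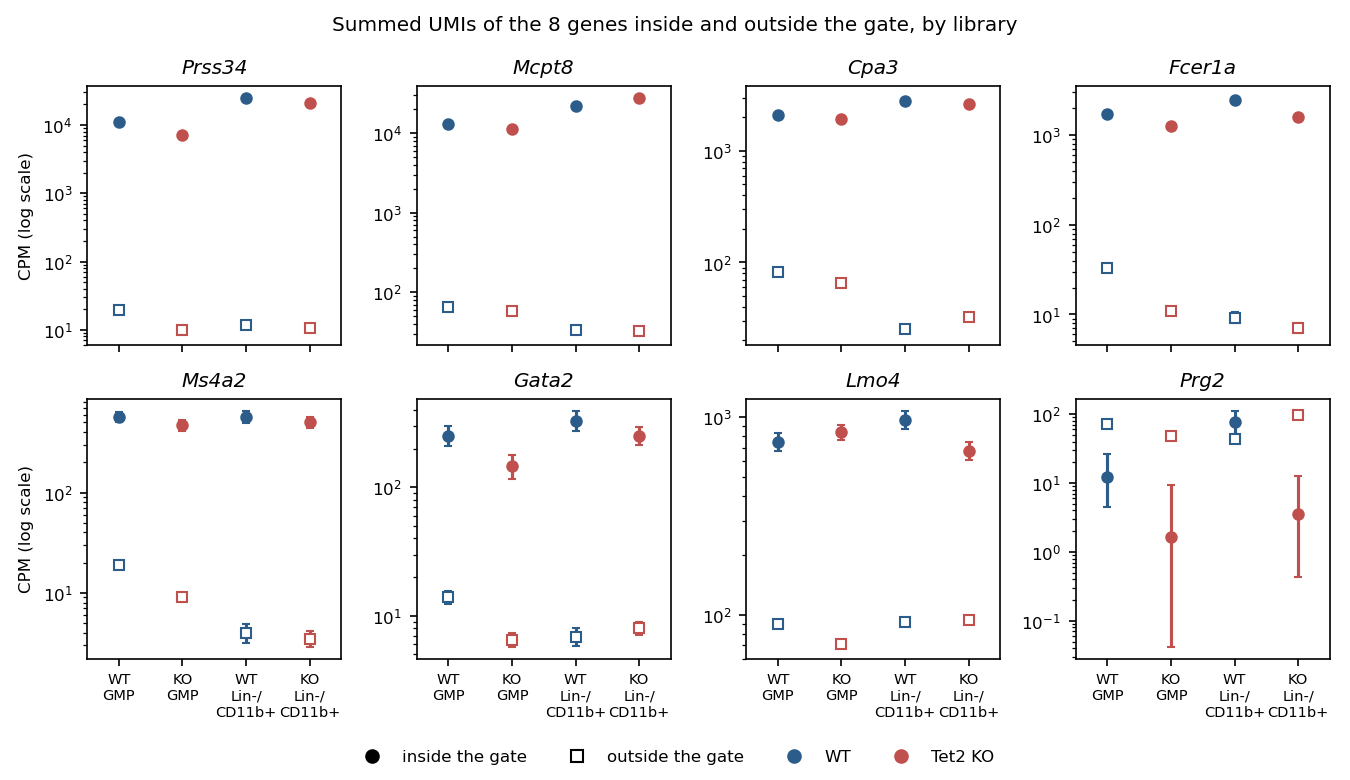
Level of each of the 8 genes inside (filled) and outside (open) the basophil gate in the 4 libraries, in CPM on a log axis with 95% Poisson intervals. Of the 6 genes that did not draw the gate, 5 sit 7.23-fold or more higher inside in every library. Prg2, whose sign turns when the gate is moved, sits lower inside in 3 of the 4.

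Counted as cells with at least 1 UMI, Gata2 was found in 88.1% of gated WT GMP cells, 78.4% of Tet2 KO GMP, 95.2% of WT Lin-/CD11b+ and 81.7% of Tet2 KO Lin-/CD11b+. Since cells differed in depth, each was thinned to 5000 UMIs, after which the shares were 78.6, 54.9, 90.5 and 60.0%. Both WT libraries lay above both Tet2 KO libraries on either count, but on the raw count the intervals of the genotypes overlapped. Thinned, the interval of WT GMP (63.2 to 89.7%) overlapped those of Tet2 KO GMP (40.3 to 68.9%) and Tet2 KO Lin-/CD11b+ (46.5 to 72.4%). That of WT Lin-/CD11b+ (77.4 to 97.3%) overlapped neither. Outside the gate 11.9, 6.15, 5.90 and 6.08% of cells held a Gata2 UMI (6.41, 2.81, 3.40 and 4.02% thinned). In neutrophil-like cells (cluster 12), which should lack it, the share was 0.662% of 151 WT Lin-/CD11b+ cells at a median of 8874 UMIs and 0 of 158 Tet2 KO cells at 9064, which allows up to 2.31%. Cpa3 and Fcer1a were each found in 90.5 to 100% of gated cells and Ms4a2 in 90.5 to 97.6%, against at most 0.662% of the neutrophil-like cells of either library for each. Prss34 was found in 90.5 to 100% of gated cells and Mcpt8 in all. Mcpt8 was also found in 38.7% of ungated WT GMP and 28.1% of ungated Tet2 KO GMP cells (15.9 and 13.3% thinned), but in 14.3 and 15.9% of ungated cells of the Lin-/CD11b+ libraries (7.55 and 8.84% thinned). Neutrophil-like cells held it at 2.65% in WT and 11.4% in Tet2 KO, and how much of the lower shares is background was not tested. Lmo4 was in 93.3 to 100% of gated cells and 53.5 to 58.7% of others, and Prg2 was in 1.67 to 7.14% of gated cells and 4.35 to 8.24% of others.

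Other genes of the basophil programme were counted from 4 lists by the same criterion of a 2-fold difference in all 4 libraries with 10 CPM added to both levels. Of 10559 genes tested, 0.985% met it as higher and 0.54% as lower. The lists were chosen with earlier results of these data known. Of 14 regulators tested, Gata1 and Runx1 were higher inside the gate, Irf8 was lower, and 11 did neither, with a list median of -0.058 against -0.081 for all genes. Gata1, the sister factor of Gata2, was at 17.7 to 24.2 CPM inside and 0.987 to 2.86 outside. Runx1, a core blood transcription factor, was at 101 to 180 CPM inside and 39.4 to 49.7 outside. Irf8, which directs monocyte and dendritic cell fate, was at 11.6 to 52.5 CPM inside and 240 to 481 outside. Of the 13 genes of IgE receptor signalling tested, 1, the adaptor Lat, met the criterion (53.2 to 84.7 CPM inside, 0.811 to 6.23 outside), and the list median was -0.16. Without the added 10 CPM its relative Lat2 met it too (91.0 to 193 CPM inside, 27.5 to 60.8 outside), and so did Cebpa and, as lower, Mitf among the regulators. Over all 10559 genes, 208 were then higher and 390 lower, against 104 and 57 with it. The receptor subunits Fcer1a and Ms4a2 thus differed from most of the kinases and adaptors named with them, such as Syk at 8.08 to 15.9 CPM inside and 17.7 to 32.3 outside.

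Of 13 surface and growth factor genes tested, 6 were higher inside (Il1rl1, Cd200r3, Cd63, Itga2b, Cd9 and Csf1) and 1, the monocyte chemokine receptor gene Ccr2, was lower, with a list median of 1.44. Cd200r3, an activating receptor of basophils, ranged from 24.8 CPM in Tet2 KO GMP to 167 in WT Lin-/CD11b+ inside and reached at most 0.759 outside. Of 13 mediator genes tested, 7 were higher (Hdc, Alox5, Il4, Il6, Ccl3, Slc18a2 and Hgf) and 0 lower, with a list median of 1.69. Hdc, which makes histamine, was at 295, 204, 355 and 305 CPM inside and 23.7 to 58.9 outside. Il4 was at 26.3, 21.5, 55.6 and 19.5 CPM inside and at most 1.03 outside. Bhlhe40, Ptgdr2, Il13 and Areg had too few UMIs to be counted.

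Along the share of UMIs that Mcpt8 and Prss34 took in a cell, the genes did not keep step. Over the 4 libraries pooled, Gata2 was at 5.72 CPM in the 6451 cells without a gate UMI and at 9.17 in the 2169 cells up to 0.05%. It was already at 111 in the 154 cells from 0.05 to 0.5%, then at 140, 233 and 233 in the steps up to 1, 2 and 4%, and at 324 in the 70 cells above 4%. Cpa3 went from 24.1 and 80.4 CPM to 785, 1083, 2055, 2517 and 3534 over the same 7 steps, and Fcer1a from 2.996 and 12.97 to 506, 820, 1439, 1650 and 2672. Ms4a2 went from 2.38 and 9.03 to 264, 360, 514, 531 and 662. In the pool these 4 were higher or level at each step. They were not in every library, where most gated steps held under 20 cells: in WT Lin-/CD11b+, Cpa3 was at 2759 CPM in 8 cells at 1 to 2% and at 1693 in 5 cells at 2 to 4%, and Gata2 at 368 and 260. In Tet2 KO GMP, Ms4a2 was at 560, 508 and 428 from the 1 to 2% step upward. Lmo4 instead was at 632 CPM from 0.05 to 0.5%, highest at 1015 from 1 to 2%, and at 721 above 4%. Prg2 peaked below the gate, at 1221 CPM from 0.05 to 0.5%, and was at 49.7, 16.6, 0 and 4.91 in the gated steps. Of the 154 cells from 0.05 to 0.5%, 101 were in cluster 10. The libraries are mixed unevenly over these steps, since of the 70 cells above 4% there were 10 from WT GMP, 5 from Tet2 KO GMP, 22 from WT Lin-/CD11b+ and 33 from Tet2 KO Lin-/CD11b+.

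**Figure D2:**
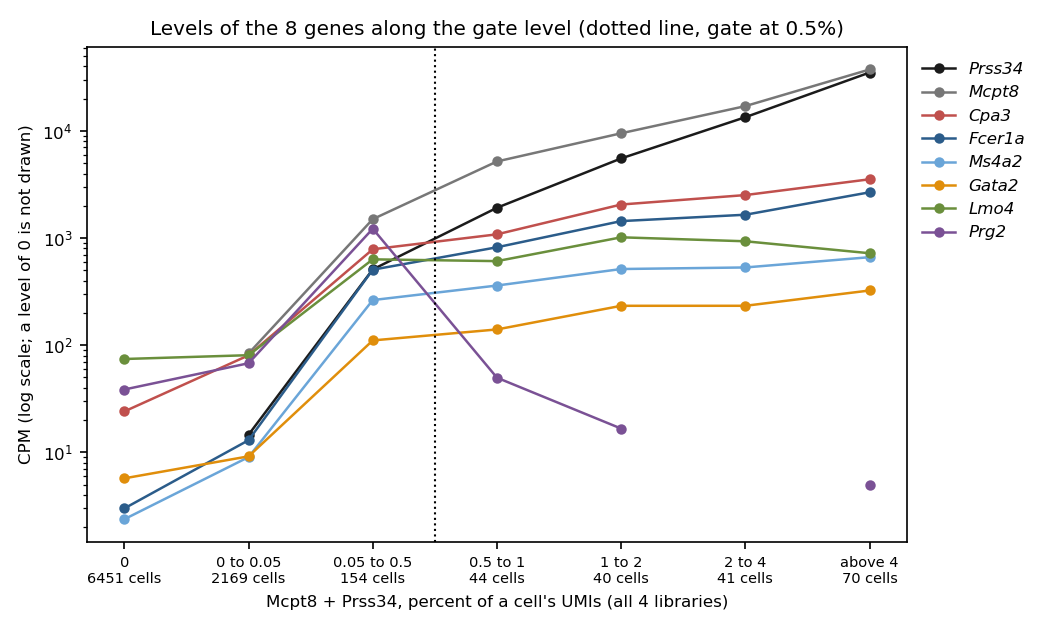
Level of the 6 genes that did not draw the gate, in CPM, over 7 steps of the share of a cell's UMIs that came from Mcpt8 and Prss34, all libraries pooled. Cpa3, Fcer1a, Ms4a2 and Gata2 are highest above 4%, Lmo4 is highest from 1 to 2%, and Prg2 is highest just below the gate.

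Between sorts of the same mouse, the gate genes were higher in Lin-/CD11b+ basophils than in GMP basophils by the widest margin of the 7 genes ordered. On the log2 scale Prss34 was higher by 1.15 (1.10 to 1.198) in WT and 1.53 (1.48 to 1.58) in Tet2 KO, and Mcpt8 by 0.76 (0.71 to 0.80) and 1.26 (1.22 to 1.30). In WT they were followed by Fcer1a at 0.52 (0.38 to 0.66), Cpa3 at 0.43 (0.30 to 0.55), Gata2 at 0.38 (0.01 to 0.75), Lmo4 at 0.37 (0.15 to 0.58) and Ms4a2 at -0.01 (-0.27 to 0.25). The intervals from Fcer1a to Lmo4 overlapped one another, that of Gata2 also reached those of Mcpt8 and Ms4a2, and that of Lmo4 reached that of Ms4a2, so the order after Prss34 is resolved only in part. In Tet2 KO the order after the proteases was Gata2 at 0.79 (0.40 to 1.19), Cpa3 at 0.46 (0.35 to 0.57), Fcer1a at 0.33 (0.19 to 0.47), Ms4a2 at 0.10 (-0.14 to 0.35) and Lmo4 at -0.31 (-0.51 to -0.12). There the intervals of Gata2, Cpa3 and Fcer1a overlapped, as did those of Fcer1a and Ms4a2 and of Ms4a2 and Lmo4. Prss34 was first and Mcpt8 second in both genotypes, and 6 of 7 ratios were above 0 in each. All genes had a median of -0.085 in WT and -0.035 in Tet2 KO. Prg2 is not ordered, having 6 and 29 UMIs in WT (a 6.33-fold ratio, 2.58 to 18.7) and 1 and 2 in Tet2 KO. With 10 CPM added to both levels, 2 of 8 members (Prss34 and Prg2) were at least 2-fold higher in the Lin-/CD11b+ sort in WT, where 2.15% of all genes were, and 2 of 7 (Prss34 and Mcpt8) in Tet2 KO, where 1.36% were. Prss34 and Mcpt8 draw the gate, and gated cells of the Lin-/CD11b+ sort lay farther past it. Their places in the order and their counts here restate that, so nothing is read from them. In Tet2 KO no gene outside the gate definition was counted.

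The ratios between sorts moved with how far the gated cells lay past the limit. Among cells with 1 to 4% of UMIs from the gate genes (21, 29, 13 and 18 cells), 2 of the 5 ratios of genes outside the gate definition were above 0 in WT and 1 of 5 in Tet2 KO. In these cells Cpa3 was at -0.16 and -0.27, Fcer1a at -0.22 and -0.38, and Ms4a2 at -0.49 and -0.31, in WT and Tet2 KO. Prss34 and Mcpt8 set this window, which holds their sum in a narrow range in both sorts, so nothing is read from their ratios in it. Gata2 was at 0.27 (-0.35 to 0.88) and 0.52 (-0.08 to 1.12), above 0 in both but with intervals that hold 0. Cluster 10 alone leaves out the gated WT GMP cells that held neither Gata2 nor Ms4a2. Within it the WT ratio of Gata2 was 0.09 (-0.28 to 0.46), that of Lmo4 was 0.09 (-0.12 to 0.30) and that of Ms4a2 was -0.30 (-0.56 to -0.04). Gata2 in Tet2 KO stayed at 0.79 there.

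**Figure D3:**
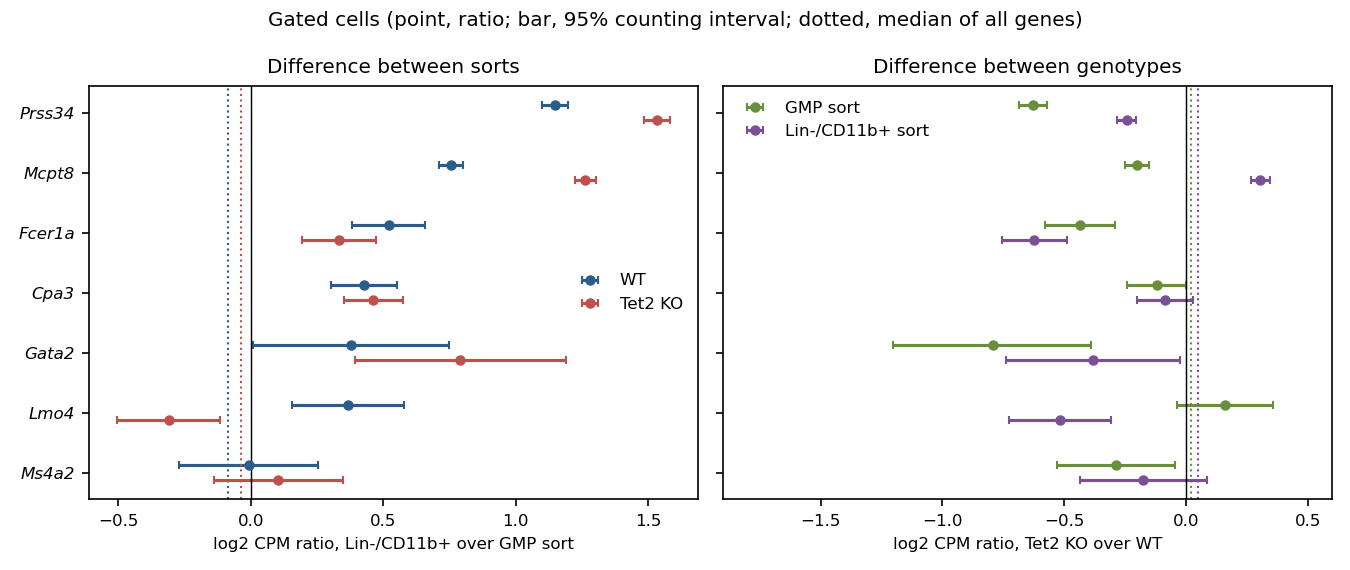
Log2 ratios of CPM in gated cells for the 7 genes with enough UMIs: Lin-/CD11b+ over GMP sort in each genotype, and Tet2 KO over WT in each sort, with 95% intervals. Prss34 and Mcpt8, which draw the gate, lie farthest above 0 between sorts. Gata2 and Fcer1a lie below 0 in Tet2 KO over WT in both sorts.

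Outside the gate the genes went the other way in WT. Ms4a2 was lower in the Lin-/CD11b+ than in the GMP sort by a log2 ratio of -2.26 (-2.60 to -1.92), Fcer1a by -1.85 (-2.08 to -1.62), Cpa3 by -1.71 (-1.85 to -1.57), Gata2 by -1.03 (-1.32 to -0.74), Mcpt8 by -0.97 and Prss34 by -0.76. Lmo4 was at 0.03 (-0.06 to 0.12). In Tet2 KO the 4 genes Ms4a2, Cpa3, Mcpt8 and Fcer1a were lower too, at -1.37, -1.02, -0.83 and -0.66. Prss34 at 0.11 (-0.10 to 0.32), Gata2 at 0.31 (0.06 to 0.55) and Lmo4 at 0.39 (0.32 to 0.47) were not lower. The cells outside the gate were of different kinds in the 2 sorts, and the mix of cells and the level in each cannot be told apart in these ratios.

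Between genotypes, Gata2 and Fcer1a were lower in Tet2 KO than in WT basophils in both sorts. For Gata2 the log2 ratio was -0.79 (-1.20 to -0.39) in the GMP sort, from 252 to 146 CPM, and -0.38 (-0.74 to -0.02) in the Lin-/CD11b+ sort, from 328 to 252 CPM. For Fcer1a it was -0.44 (-0.58 to -0.29) and -0.62 (-0.76 to -0.49). Prss34 was lower as well, at -0.63 (-0.69 to -0.57) and -0.24 (-0.28 to -0.20), and Ms4a2 was at -0.29 (-0.53 to -0.04) and -0.18 (-0.44 to 0.09). Cpa3 was close to level, at -0.12 (-0.24 to 0.002) and -0.085 (-0.20 to 0.03). Mcpt8 was at -0.20 (-0.25 to -0.15) for GMP cells but at 0.31 (0.27 to 0.34) for Lin-/CD11b+ cells. Lmo4 was at 0.16 (-0.04 to 0.36) and -0.52 (-0.73 to -0.31). The median over all genes was 0.019 in the GMP and 0.049 in the Lin-/CD11b+ sort.

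These differences were small beside the fold that was counted. With 10 CPM added, 0 of 7 members differed at least 2-fold between genotypes in the GMP sort, where 2.2% of 4416 genes did, and 1 of 8, Prg2 with 29 and 2 UMIs, in the Lin-/CD11b+ sort, where 4.17% of 4024 did. At 1 to 4% of gate UMIs the Gata2 ratios were -0.61 and -0.36 and those of Fcer1a were -0.37 and -0.53, and nothing is read from Mcpt8 and Prss34 there, which set that window. Within cluster 10 the Gata2 ratio in the Lin-/CD11b+ sort was -0.28 (-0.64 to 0.09). The spread between mice was not measured, so none of these ratios can be set against it.

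Outside the gate, levels were compared over clusters of at least 20 ungated cells in each library. The clusters were built from the same counts, so their order is a description. The ungated cells of cluster 10 were not all like the gated cells. Pooled, they had Gzmb at 78.9 CPM, Kit at 40.4, Hdc at 259 and Cd200r3 at 9.53. Gated cells had 0, 22.5, 282 and 97.0. Some of these ungated cells were high in Prg2, as given below. For Gata2 the ungated cells of the basophil-like cluster 10 came first in every library, at 213 CPM in WT GMP, 146 in Tet2 KO GMP, 212 in WT Lin-/CD11b+ and 154 in Tet2 KO Lin-/CD11b+. The HSPC-like clusters 9 and 5, which hold stem and early progenitor cells, came next at 25.8 and 23.6 CPM in WT GMP, 30.8 and 25.2 in WT Lin-/CD11b+, and 37.0 and 20.3 in Tet2 KO Lin-/CD11b+. In Tet2 KO GMP cluster 5 was at 10.5, and cluster 9 had under 20 cells. The levels of clusters 9 and 5 did not differ beyond their intervals in the WT libraries and did in Tet2 KO Lin-/CD11b+. All remaining clusters were at 10.6 CPM or less.

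Cpa3 followed a like order, with 1110 CPM over the libraries pooled in ungated cells of cluster 10, 128 in cluster 5, 94.0 in the unnamed cluster 2 and 51.2 in cluster 9. In the GMP libraries cluster 5 was above cluster 2, and in the Lin-/CD11b+ libraries cluster 2 was above cluster 5. Fcer1a and Ms4a2 were nearly confined to cluster 10 among ungated cells, at 592 and 352 CPM pooled, with no other cluster above 2.99 and 1.61 pooled, although the 21 WT GMP cells of cluster 9 had Fcer1a at 19.4. Lmo4 was at 916 CPM in cluster 10, at 214 in the neutrophil-like cluster 12, at 124, 120 and 111 in monocyte-like clusters 4 and 13 and the DC-like cluster 7, and lowest at 19.7 in cluster 11.

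Mcpt8 and Prss34 parted outside the basophils. Inside the gate there were 1.19 (1.15 to 1.23), 1.60 (1.54 to 1.66), 0.906 (0.879 to 0.933) and 1.33 (1.29 to 1.36) Mcpt8 UMIs per Prss34 UMI in the 4 libraries. In ungated cells outside cluster 10 there were 11.8 (9.44 to 14.8) in WT GMP, 19.7 (16.0 to 24.5) in Tet2 KO GMP, 3.62 (3.03 to 4.35) in WT Lin-/CD11b+ and 4.79 (4.06 to 5.68) in Tet2 KO Lin-/CD11b+. By cluster, pooled, the number was 27.0 (18.7 to 40.2) in the HSPC-like cluster 5 but 5.52 (3.59 to 8.82) in the HSPC-like cluster 9, 24.1 in cluster 2, and 22.5 and 16.7 in the neutro-biased GMP-like clusters 3 and 6. These numbers differed between libraries: cluster 2 was at 25.5, 30.3, 6.0 (2.504 to 17.4) and 23.4, and clusters 3 and 6 together were at 17.7, 28.0, 27.8 and 6.5 (3.52 to 13.1). In monocyte-like clusters the number was 5.89 (4.69 to 7.46) in cluster 0, 5.05 (3.92 to 6.59) in cluster 1, 2.75 (1.62 to 4.84) in cluster 13 and 1.58 (0.9995 to 2.52) in cluster 4. It was 1.28 in cluster 7, 1.28 in cluster 11 and 1.35 (0.811 to 2.25) in cluster 12, close to that of gated cells. Mcpt8 was at 74.5, 73.1, 62.5 and 45.0 CPM in clusters 5, 2, 3 and 6, with Prss34 at 2.69 to 3.03 there. Pooled, Mcpt8 in those 4 clusters was thus not in the proportion to Prss34 that gated cells had, while clusters 4, 7, 11 and 12 were close to it.

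Outside the gate a few cells held much of Prg2: in WT GMP 3 cells held 82.5% of its ungated UMIs, in Tet2 KO GMP 53.4%, in WT Lin-/CD11b+ 11.7% and in Tet2 KO Lin-/CD11b+ 34.1%. Prg2 sat in a pair of places outside the gate: 60.0% of its UMIs were in ungated cells of cluster 10 and 31.7% in the lymphoid-like cluster 11. Cells with at least 0.1% of UMIs from Prg2, a limit set after the values were seen, numbered 76 and held 82.5% of it, with 28 cells at 1 to 2 times the limit and 51 just under it, from 0.5 to 1 times. Of these cells 26 were ungated cells of cluster 10, with Prg2 at 19227 CPM, the eosinophil granule gene Prg3 at 1918, Ear6 at 226 and Epx, eosinophil peroxidase, at 181. Their Gata2 level was 41.1 CPM, Ms4a2 86.3 and Lmo4 255, against 189, 379 and 984 in the other 215 ungated cells of cluster 10, where Prg3 was at 38.2 and Prg2 at 23.5. A further 45 cells were in cluster 11, with Prg2 at 2504 CPM, Prg3 at 1.68 and the antibody genes Igkc and Jchain at 465043 and 70610. The 2 places thus shared Prg2 and not Prg3.

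**Figure D4:**
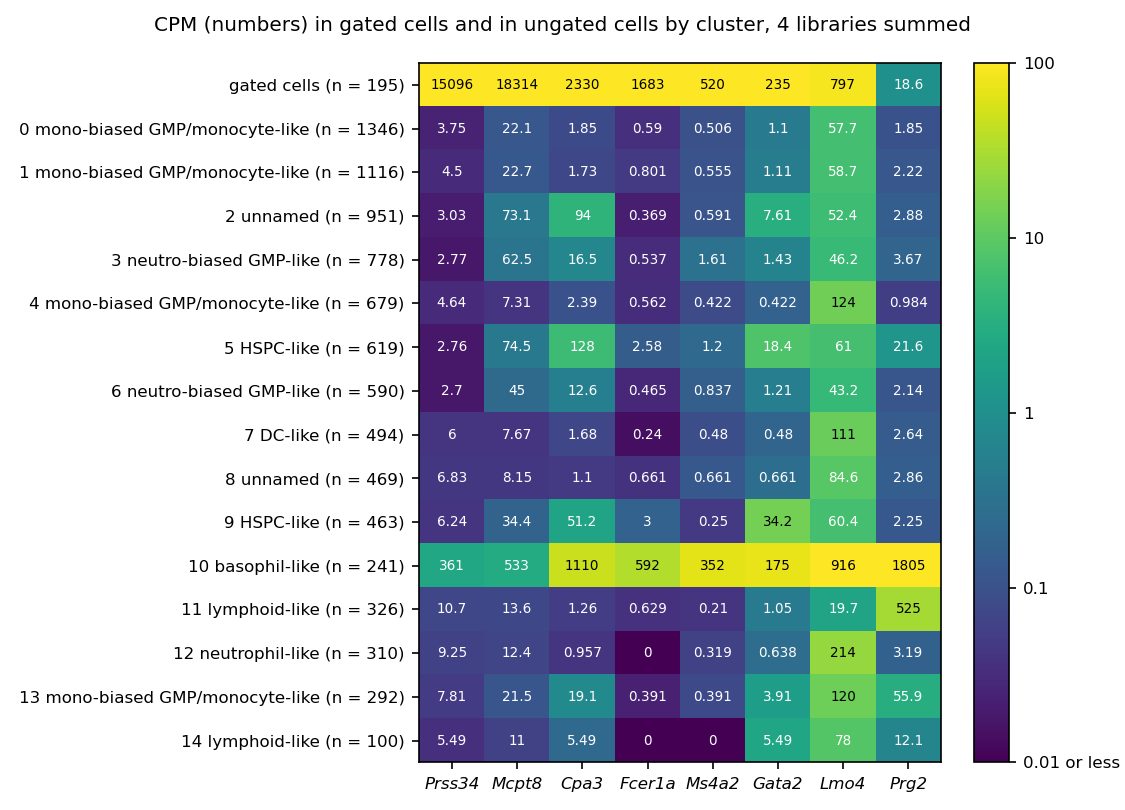
Level of the 8 genes in gated cells and in the ungated cells of each cluster, libraries pooled. Numbers are CPM and colour is the percent of each gene's highest level on a log scale. Gata2 and Cpa3 extend from cluster 10 into clusters 5, 9 and 2, Fcer1a and Ms4a2 do not, and Prg2 appears in clusters 10 and 11.

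Likeness of pattern was measured as Pearson's r of log2 CPM, with 10 CPM added, over 49 profiles of gated cells and ungated clusters by library. The profiles share libraries and cell depth, so r is a description. Gata2 was most like Slc18a2 (0.98), the vesicular monoamine transporter gene, Itga2b (0.98), the integrin CD41 gene, and Slc7a8 (0.96), an amino acid transporter gene. Cpa3 was nearest Itga2b (0.96), and Fcer1a and Ms4a2 were both nearest Csrp3 (0.991 and 0.995), Csf1 (0.97 and 0.97) and Scin (0.97 and 0.97). Prss34 and Mcpt8 were both nearest Cyp11a1 (0.99 and 0.95), a steroid synthesis gene, and Edem3 (0.98 and 0.95). Lmo4 was nearest Arap3 (0.92), Alox5 (0.92) and Csrp3 (0.91). Among the members, Fcer1a and Ms4a2 were at 0.99 and Gata2 and Cpa3 at 0.95, while Prg2 was at 0.28 to 0.52 with the others and was nearest Prg3 (0.79) and Gzmb (0.79).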

How the data were processed

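Sorted bone marrow cells were profiled by 10x Genomics 3′ single-cell RNA-seq, named as version 2 in the protocol and as version 3.1 in the design text, in 4 libraries. Per the labels and the methods, the authors aligned reads to mm10 and counted UMIs with Cell Ranger 3.1.0, worked in Seurat, and deposited raw UMI counts with a table of cells. The methods state a limit of 5% mitochondrial UMIs, but 413 deposited cells lie over it, and all deposited cells were used. Doublets were neither called nor removed. An alternative left out the 5% of cells with most UMIs. Per-sample columns not used numbered 0.

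The members and lists were chosen with earlier results of these data known. Summed counts gave CPM, with intervals from scipy 1.17.1 (Python 3.11.15, numpy 2.4.6, pandas 2.3.3). The ratio intervals were run on simulated Poisson counts, the model they assume, so that run says nothing about spread between cells. Genes needed 20 UMIs to be tested, and 10 CPM was added to both levels where all genes were counted at 2-fold. Cells were clustered with scanpy 1.11.5 and leidenalg 0.10.2 (2000 variable genes, 30 components, 30 neighbours, resolution 0.8, 15 clusters), and a cluster was named when at least 3 markers of a type, and more than of another type, were 1.5-fold higher there; this naming rule and the Prg2 limit were set after values were seen. Named genes were all members, the list genes 2-fold different in every library, others that define a list, and the 3 genes nearest each member by r among those with 200 UMIs. Alternatives moved or redrew the gate, applied the mitochondrial limit, thinned cells to 5000 UMIs, left the gate genes out of the total, averaged over cells, or used TMM factors (edgeR 4.0.16). Added after the data were seen were the sets without shared barcodes, within cluster 10, and at 1 to 4% of gate UMIs, the lists without the added 10 CPM, and ungated cells without the 3 with most Prg2 per library.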

Additional observations from a re-analysis of the deposited data

Results flagged for a closer look

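In 4 places the same contrast had opposite signs in the pair of mice or the pair of sorts. Each rests on 1 library per group, so the difference was not tested, and intervals cover counting error only. Inside the gate, the log2 ratio of Lmo4 between the Lin-/CD11b+ and GMP sorts was 0.37 in WT and -0.31 in Tet2 KO, and within cluster 10 alone it was 0.09 (-0.12 to 0.30) and -0.27. Outside the gate, the same ratio of Gata2 was -1.03 in WT and 0.31 in Tet2 KO. Outside the gate, that of Prg2 was -0.68 in WT and 1.01 in Tet2 KO, with 24 ungated cluster 10 cells in WT Lin-/CD11b+ (153 CPM) and 48 in Tet2 KO Lin-/CD11b+ (3202 CPM). In WT GMP 3 cells held 82.5% of the ungated Prg2 UMIs, and without the 3 cells with most Prg2 in each library the ratio was 1.65 (1.45 to 1.85) in WT and 1.51 (1.40 to 1.62) in Tet2 KO, so that the opposite signs rest on those cells. The log2 ratio of Mcpt8 between Tet2 KO and WT gated cells was -0.20 in the GMP sort and 0.31 in the Lin-/CD11b+ sort.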

How the results depend on the processing

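Of the values of the main comparisons under alternatives, 82 stayed within the range set for them and 6 moved. The share of gated Tet2 KO GMP cells was 2.72% with the gate at 0.25% and 1.25% with the gate at 1%. Among cells at 1 to 4% of gate UMIs, ratios between sorts above 0 numbered 2 of 7 in WT and 3 of 7 in Tet2 KO, a window that by its construction holds Prss34 and Mcpt8 together in a narrow range. There the signs of Prss34 (WT -0.11), Mcpt8 (WT -0.063), Cpa3 (WT -0.16, Tet2 KO -0.27), Fcer1a (WT -0.22, Tet2 KO -0.38) and Mcpt8 in Tet2 KO over WT GMP (0.17) turned. Prg2 turned with the gate: inside over outside was 2.29 in Tet2 KO GMP and 1.71 in Tet2 KO Lin-/CD11b+ at 0.25%, and -3.76 in WT Lin-/CD11b+ at 1%, the ratio between sorts in WT was -2.42 at 1%, and Tet2 KO over WT in the Lin-/CD11b+ sort was 2.30 at 0.25%. Without the added 10 CPM, 2 genes of IgE receptor signalling were higher in the gate and 2 regulators lower, while 208 of all 10559 genes were higher and 390 lower. The ratio of Prg2 between sorts outside the gate was 1.65 in WT without the 3 cells with most Prg2. The cause was not tested for the other genes and gates. For single members, 405 other values stayed within their interval and 120 left it without a called sign turning. Gata2 kept its sign in every alternative run, with Tet2 KO over WT at -1.03 to -0.61 for GMP cells and -0.39 to -0.28 for Lin-/CD11b+ cells. Lmo4 in Tet2 KO over WT GMP, whose interval held 0, ran from -0.27 to 0.28. No paired analysis was possible because the groups share a single replicate number and no test was made. No replicate could be left out with 1 library per group, and depth limits Prg2 inside the gate and Gata2 outside it.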
